A study of Mus musculus with 6 samples.

Results

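Zfp genes encode zinc finger proteins, and the set described here is every array probe whose only gene symbol is Zfp followed by digits. It holds 101 probes for 88 genes, of 6856 probes and 6041 named genes on the array. Most proteins of this kind carry a row of zinc fingers, short loops folded around a zinc ion, which bind DNA base by base. Many also carry a KRAB domain, which recruits the corepressor protein Trim28 and silences chromatin, often at transposable elements. A smaller number bind RNA, and some act in imprinting or in the growth of neurons. Because the finger repeats are alike from gene to gene and many of these genes arose by tandem duplication, a probe can also capture RNA of a related gene, and its share in the values below was not tested.

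The RNA came from the neocortex of C57BL/6 mouse embryos of embryonic day 14. Null mutants that are synaptically silent were compared with normal embryos, to find genes that depend on synaptic activity. Each of 6 arrays of 2 colours held 1 mutant, a biological replicate per the labels, against 1 pool of 6 wild-type biological replicates of the same strain and age. The mutant was labelled with cy3 on replicates 1, 2 and 3 and with cy5 on replicates 4, 5 and 6. With this pool as the sole control, no value carries the spread between wild-type embryos. In such tissue RNA, fewer cells of a type and less RNA per cell cannot be told apart.

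The deposited values are log ratios, read here as log2, and their direction is not settled. Under one reading the mutant is over the pool on all 6 arrays. Under the other reading the ratio is cy5 over cy3 on every array, and replicates 1 to 3 have to be turned before they can be averaged with replicates 4 to 6. The transcript Xist, which coats the inactive X of female cells, lay at -3.17 and -2.58 on replicates 5 and 6. On replicates 1 to 4 it lay at 0.61, 0.71, 0.31 and 0.24. Turning makes replicates 1 to 3 negative, at a far smaller size than replicates 5 and 6. Xist was not used to choose between the readings. Signs are given as deposited, with no reading chosen, and the main counts are also given with replicates 1 to 3 turned. Arrays of one dye orientation correlated over all probes at 0.36 (replicates 1 and 2), -0.20 (1 and 3), -0.19 (2 and 3), -0.26 (4 and 5), -0.08 (4 and 6) and 0.21 (5 and 6). Replicates 3 and 4 stood apart from the rest: they correlated with each other at 0.59 across dye orientations, and replicate 3 had the largest standard deviation, at 1.09 against 0.35 to 0.62 on the others. Of 19 neocortex markers 16 had a probe, each with a value on all 6 arrays, and 4 of 7 microglial, 7 of 9 meningeal and vessel and 3 of 7 blood markers had a value. Over the meningeal and vessel probes the median ratio was -0.40 for replicate 1, -0.31 for replicate 2, 0.73 for replicate 3, 0.03 for replicate 4, 0.35 for replicate 5 and 0.46 for replicate 6, from 4 to 7 probes an array. These markers were thus negative on replicates 1 and 2 and positive on 5 and 6, and their part in the results below was not tested. None of the other marker lists had this order on all of replicates 1, 2, 5 and 6. Of 8 ganglionic eminence markers 7 had a value, with medians of -0.29, 0.16, 0.38, -0.41, -0.19 and 0.17 on replicates 1 to 6. The neocortex medians were 0.03, 0.14, -0.73, 0.09, 0.02 and -0.03. The microglial medians were 0.03, -0.17, -0.50, 1.24, 0.04 and 0.32, from 3 or 4 probes an array. The blood medians were 0.03, -0.12, -0.42, 0.22, 0.29 and 0.01, from 3 probes. Both were thus negative on replicate 2 and positive on 5 and 6, and departed from the meningeal order on replicate 1 alone. Log ratios hold no level, so that the presence of a marker value shows only that a signal was recorded.

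Promoters are shown for 4 of the members that have the same sign on all 6 arrays under one of the readings. Zfp868 has it as deposited, and Zfp715, Zfp61 and Zfp346 once replicates 1 to 3 are turned. Zfp42, Zfp317 and Zfp74 have it once turned as well and are not shown. The sequences are those of RefSeq on GRCm38.p6, from 250 bases before to 50 after the start of the gene, on the strand of the gene. Capitals mark the GC box GGGCGG and the CCAAT box on either strand. TATAAA was searched as well and is in none of the 4 windows shown, while 1 window of Zfp317 holds it. No marked motif overlaps another. Zfp868 and Zfp346 have 2 annotated starts each, of which 1 is shown.
Zfp868, chr8:69625126-69625425, minus strand: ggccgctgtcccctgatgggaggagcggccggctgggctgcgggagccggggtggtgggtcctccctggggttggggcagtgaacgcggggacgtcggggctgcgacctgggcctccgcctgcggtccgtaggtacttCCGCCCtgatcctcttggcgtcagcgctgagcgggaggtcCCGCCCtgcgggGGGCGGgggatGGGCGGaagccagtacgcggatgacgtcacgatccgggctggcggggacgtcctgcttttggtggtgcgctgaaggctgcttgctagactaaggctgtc
Zfp715, chr7:43313251-43313550, minus strand: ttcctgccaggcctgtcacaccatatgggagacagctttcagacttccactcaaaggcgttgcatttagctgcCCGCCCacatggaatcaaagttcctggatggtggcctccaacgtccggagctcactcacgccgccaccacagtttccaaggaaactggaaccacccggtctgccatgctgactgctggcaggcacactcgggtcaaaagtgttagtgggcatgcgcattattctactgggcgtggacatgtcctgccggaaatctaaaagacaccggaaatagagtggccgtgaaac
Zfp61, chr7:24299500-24299799, minus strand: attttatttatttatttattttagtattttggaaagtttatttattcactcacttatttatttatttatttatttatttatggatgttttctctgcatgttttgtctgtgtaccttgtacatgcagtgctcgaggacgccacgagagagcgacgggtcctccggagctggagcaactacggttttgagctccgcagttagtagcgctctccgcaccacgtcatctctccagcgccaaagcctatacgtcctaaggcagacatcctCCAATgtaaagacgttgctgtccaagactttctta
Zfp346, chr13:55105059-55105358, plus strand: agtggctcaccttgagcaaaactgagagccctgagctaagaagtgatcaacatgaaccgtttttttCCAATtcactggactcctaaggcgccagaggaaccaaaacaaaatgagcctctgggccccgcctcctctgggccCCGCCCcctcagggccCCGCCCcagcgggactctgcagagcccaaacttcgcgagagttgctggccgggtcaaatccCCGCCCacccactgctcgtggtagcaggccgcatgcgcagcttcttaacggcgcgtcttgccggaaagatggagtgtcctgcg
The Zfp868 window shown holds 4 GC boxes and 29 CpG dinucleotides with 71.3% G and C, the Zfp346 window 3 GC boxes and 1 CCAAT box. The other Zfp868 window, not shown, holds 1 GC box, 2 CCAAT boxes and 6 CpG dinucleotides with 50.7% G and C. Zfp715 has 1 GC box, and Zfp61 has 1 CCAAT box and 41.3% G and C. Of the 88 genes 73 had a promoter in the table, with 91 windows because 16 genes have more than 1 start. GGGCGG was in 39.6% of these windows and in 35.7% of all 32851 windows of the same length, CCAAT in 41.8% against 37.4%, and TATAAA in 8.79% against 13.6%. The median window of a Zfp gene held 13 CpG dinucleotides and the median of all windows 7. A match is a description of letters, not of a bound site.

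Zfp probes had a value more often than the array as a whole. A value on all 6 arrays was present for 69 of 101 probes (68.3%), against 3763 of 6856 probes on the array (54.9%). Among the 32 Zfp probes made on a series of numbered clone records, described below, 30 were complete. Among the 69 other Zfp probes 39 were, a share close to that of the array. Zinc finger factors under other names had 64.8% complete probes, and genes of KRAB corepression and heterochromatin 91.7%. Zfp78 had no value on any array, which was so for 11.3% of all probes, and Zfp94 had 1 value, 0.018 on replicate 1. Between 1 and 5 values were present for the other 31 incomplete probes, Zfp94 included. By array, Zfp values numbered 92 for replicate 1, 87 for replicate 2, 78 for replicate 3, 81 for replicate 4 and 98 each for replicates 5 and 6. The 2 arrays that stood apart were thus also those with the fewest values. Zfp54, Zfp108, Zfp316 and Zfp618 had values on replicates 5 and 6 alone: Zfp54 lay at -0.43 and -0.44, Zfp316 at 0.82 and 0.38, Zfp618 at -1.33 and -0.72, and Zfp108 at -0.34 and 0.94. Except for Zfp108, the pair of arrays had the same sign. A test needed 2 values in each dye orientation, which left 89 of the 101 probes.

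The spread between arrays was wide against the size of the ratios. Over the 69 complete Zfp probes the standard deviation across the 6 arrays had a median of 0.36, with quartiles of 0.31 and 0.51, against 0.42 with quartiles of 0.31 and 0.55 over all 3763 complete probes. Over the 4 arrays without replicates 3 and 4 the median was 0.27 for Zfp probes and 0.23 for all. The median Zfp probe differed by 0.13 between replicates 1 and 2 and by 0.17 between replicates 5 and 6, against 0.14 and 0.21 for all probes. On replicate 3, 13 of 78 Zfp probes (16.7%) lay beyond 1 in size and on replicate 4, 7 of 81 (8.64%), against 2, 0, 3 and 0 on replicates 1, 2, 5 and 6. Over all probes these shares were 28.8% on replicate 3 and 7.53% on replicate 4. Zfp probes with values on both of these arrays had the same sign there in 51 of 71 cases, 22 positive and 29 negative. The likeness of these arrays is not particular to the set: they correlated at 0.54 over Zfp probes and at 0.59 over all probes.

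**Figure D1:**
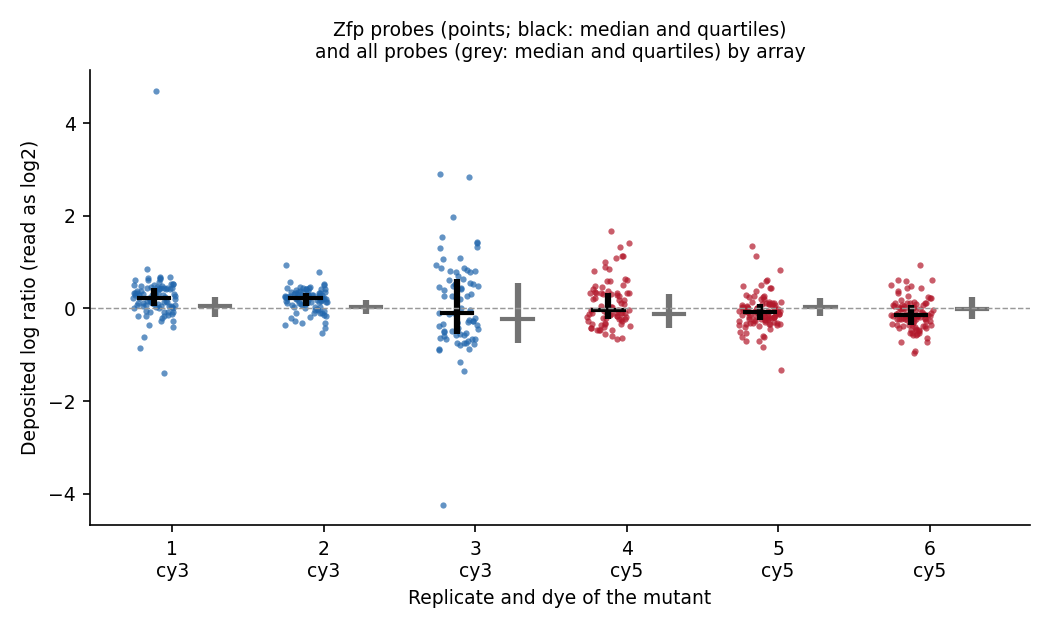
Deposited log ratio (vertical axis, read as log2) of each Zfp probe on each array (horizontal axis, with the dye of the mutant); blue points are cy3 arrays, red points cy5 arrays, horizontal marks are medians and vertical bars run between the quartiles, in black for Zfp probes and in grey for all probes. The Zfp medians lie at 0.23 and 0.22 on replicates 1 and 2 and at -0.08 and -0.15 on replicates 5 and 6.

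Zfp868 gave the steadiest ratio of the set. It is a zinc finger gene of chromosome 8, and its probe lay at 0.24, 0.42 and 0.32 on replicates 1 to 3 and at 0.31, 0.19 and 0.51 on replicates 4 to 6. All 6 values are positive and no array stands apart; the cy3 and cy5 arrays overlap, with means of 0.32 and 0.34. Its standard deviation of 0.12 is the lowest of the 69 complete Zfp probes, and 39 of 3763 complete probes on the array have one as low. In limma the estimate was 0.33 ± 0.11 (SE, n = 6; adjusted p = 0.921 over 4958 probes), which does not pass the threshold of 0.05. Its unadjusted p in limma, which comes from the same 6 values and is no separate support, was 0.0184, the smallest of all Zfp probes. Without replicates 3 and 4 it was 0.34 ± 0.09 (SE, n = 4; adjusted p = 0.3), and with replicates 1 to 3 turned it was 0.0076 ± 0.11 (SE, n = 6; adjusted p = 0.993). The sign of Zfp868 thus rests on the reading under which the mutant is the numerator on every array. It was the only one of 69 complete Zfp probes with 1 sign throughout, 1.45% of them, where 54 of 3763 probes (1.44%) had 1 sign on the array as a whole. The share is that of the background. Of those 54 probes, 6 had a standard deviation as low as that of Zfp868, itself included. With each array centred on its median, 2 Zfp probes had 1 sign (2.9%), against 58 of 3763 probes (1.54%).

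Turning replicates 1 to 3 gave 6 Zfp probes with 1 sign, 8.70% of the 69, where 147 of 3763 probes (3.91%) had 1 sign on the array. Averaged per gene it was 3 of 61 Zfp genes (4.92%), nearer to the share of all probes. Zinc finger factors under other names had 3 of 57 probes (5.26%). With centred arrays the shares were 10.1% for Zfp probes, 8.77% for these other factors and 5.42% for all probes. Zfp715, by its probe 30, lay at 0.62, 0.45 and 0.48 on replicates 1 to 3 and at -0.46, -0.59 and -0.54 on replicates 4 to 6. The cy3 arrays are all above 0.4 and the cy5 arrays all under -0.4, with no overlap. Zfp61 lay at 0.62, 0.47 and 0.53 on replicates 1 to 3 and at -0.39, -0.27 and -0.73 on replicates 4 to 6, again without overlap between the dyes. Zfp42, also known as Rex1 and used as a marker of pluripotent cells, lay at 0.52, 0.17 and 0.26 on replicates 1 to 3 and at -0.056, -0.12 and -0.17 on replicates 4 to 6. In these 3 genes every cy3 array is positive and every cy5 array negative.

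A second probe of Zfp317, probe 6420, lay at 0.49, 0.25 and 0.011 on replicates 1 to 3 and at -0.19, -0.095 and -0.36 on replicates 4 to 6, and Zfp74, by its probe 6419, at 0.32, 0.18 and 0.44 on replicates 1 to 3 and at -0.034, -0.25 and -0.11 on replicates 4 to 6. Both are positive with the mutant in cy3 and negative with it in cy5, and in both the array nearest to 0 lies within 0.04 of it. Zfp346, which binds double-stranded RNA, is the one of the 6 with the opposite order, at -0.36, -0.28 and -0.90 on replicates 1 to 3 and at 0.17, 0.44 and 0.085 on replicates 4 to 6. Its cy3 arrays are all negative and its cy5 arrays all positive. With replicates 1 to 3 turned, limma gave Zfp715 -0.52 ± 0.10 (SE, n = 6), Zfp61 -0.50 ± 0.11 (SE, n = 6) and Zfp346 0.37 ± 0.13 (SE, n = 6), each with an adjusted p of 0.972. None of the 6 passed. Counting also probes with missing values, 12 of 89 fitted Zfp probes (13.5%) had one sign on every cy3 value and the other on every cy5 value, 10 of them positive with cy3, where 342 of 4958 probes (6.90%) did. Among zinc finger factors under other names 8 of 74 (10.8%) did, all 8 positive with cy3, and among genes of KRAB corepression and heterochromatin 0 of 24.

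**Figure D2:**
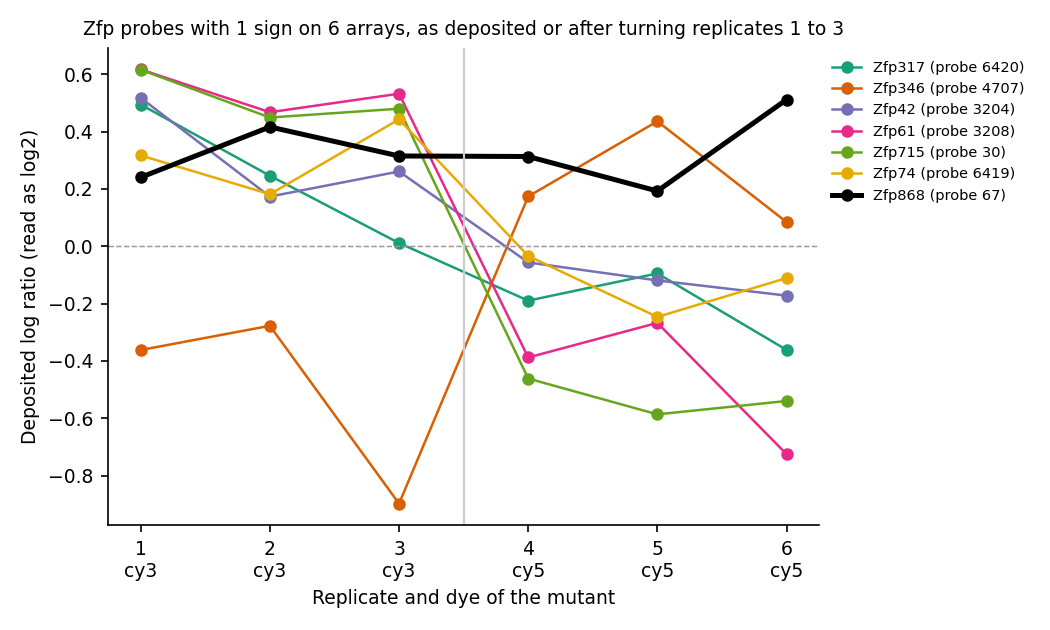
Deposited log ratio (vertical axis, read as log2) of 7 Zfp probes on replicates 1 to 6 (horizontal axis, with the dye of the mutant); each line is 1 probe and the vertical line parts the dye orientations. Zfp868 stays between 0.19 and 0.51, while Zfp715, Zfp61, Zfp42, Zfp317 and Zfp74 lie above 0 on the cy3 and below 0 on the cy5 arrays and Zfp346 the other way round.

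Zfp probes were mostly positive on replicates 1 and 2 and mostly negative on replicates 5 and 6, and were split about evenly on replicates 3 and 4. With the mutant in cy3, 74 of 92 Zfp probes (80.4%) were positive on replicate 1 and 69 of 87 (79.3%) on replicate 2, where 56.1% and 57.1% of all probes were. With the mutant in cy5, 37 of 98 (37.8%) were positive on replicate 5 and 33 of 98 (33.7%) on replicate 6, where 55.4% and 49.4% of all probes were. On replicate 3, with cy3, 47.4% were positive against 41.8% of all probes, and on replicate 4, with cy5, 49.4% against 40.3%. The Zfp median was 0.23 for replicate 1, 0.22 for replicate 2, -0.08 for replicate 5 and -0.15 for replicate 6, where the medians of all probes were 0.05, 0.04, 0.04 and -0.0049. For the arrays that stood apart the Zfp medians were -0.10 and -0.026, above the medians of all probes, -0.23 and -0.13. After each array was centred on its median the Zfp medians became 0.18, 0.18, 0.13, 0.10, -0.12 and -0.15 on replicates 1 to 6, so that replicate 4 differs in sign from the other cy5 arrays. These centred medians have the sign of Xist on all 6 arrays, while the meningeal and vessel markers have the opposite sign on replicates 1, 2, 5 and 6. Over replicates 1, 2, 5 and 6 the dye orientation and the sign of Xist split the arrays the same way and cannot be told apart.

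Counted probe by probe over the 4 arrays other than replicates 3 and 4, a choice made after the data were seen, 37 of 83 Zfp probes (44.6%) were positive on replicates 1 and 2 and negative on 5 and 6. On the array as a whole this held for 800 of 4728 probes (16.9%). The opposite pattern was found in 4 of 83 (4.82%), against 12.6% of all probes. Positive on all 4 arrays were 8 of 83 (9.64%) against 11.7%, and negative on all 4 were 3 (3.61%) against 5.46%. Centring the arrays on their medians left the first count at 37 of 83, with 17.4% of all probes. Averaged per gene it was 32 of 73 genes (43.8%). The 83 probes are those with a value on each of the 4 arrays, not all 101.

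**Figure D3:**
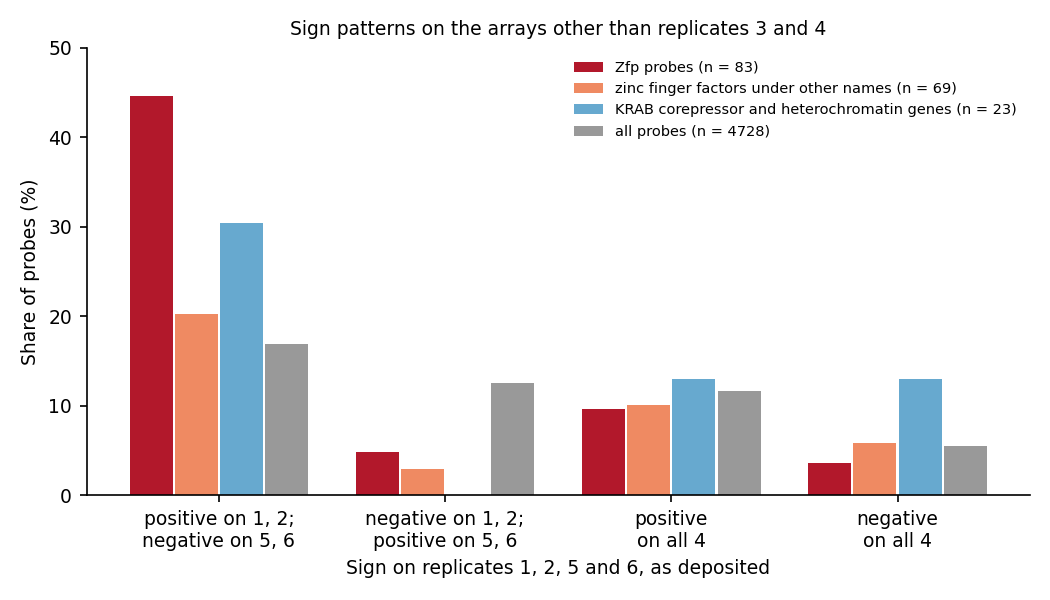
Share of probes in percent (vertical axis) with each of 4 sign patterns on replicates 1, 2, 5 and 6 (horizontal axis), for Zfp probes, zinc finger factors with other names, genes of KRAB corepression and heterochromatin, and all probes. Zfp probes reach 44.6% in the first pattern and all probes 16.9%.

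Zfp458 showed this pattern at the largest size, at 0.85, 0.78 and -0.65 on replicates 1 to 3 and at -0.60, -0.71 and -0.48 on replicates 4 to 6. Replicates 1 and 2 are high and all other arrays low, replicate 3 included, although the mutant carried cy3 there. Further cases are Zfp975, at 0.44, 0.35 and -0.10 on replicates 1 to 3 and at -0.22, -0.34 and -0.37 on replicates 4 to 6, Zfp930, at 0.30, 0.29 and -0.25 on replicates 1 to 3 and at -0.28, -0.24 and -0.47 on replicates 4 to 6, and Zfp114, at 0.57, 0.30 and -0.52 on replicates 1 to 3 and at -0.46, -0.19 and -0.57 on replicates 4 to 6. In each of them replicates 1 and 2 lie above all other arrays and replicate 3 sits with the cy5 arrays. Zfp110, also known as a protein that interacts with the neurotrophin receptor p75, lay at 0.50, 0.41 and -0.65 on replicates 1 to 3 and at -0.33, -0.21 and -0.18 on replicates 4 to 6. The full sequence of 2 positive and then 4 negative values, which these 5 probes share, was the most frequent of all sign sequences among complete Zfp probes, with 12 of 69 (17.4%), and also on the array, with 429 of 3763 (11.4%). Zfp40 kept a positive value on replicate 4, at 0.51, 0.31 and 0.27 on replicates 1 to 3 and at 0.31, -0.51 and -0.38 on replicates 4 to 6. Zfp53, which lies in the same gene cluster as Zfp51 and Zfp52, had no value on replicate 4 and lay at 0.68, 0.28 and 0.63 on replicates 1 to 3 and at -0.71 and -0.57 on replicates 5 and 6. It is positive on every cy3 array and negative on both cy5 arrays that gave a value. Zfp975, Zfp930, Zfp114, Zfp110 and Zfp40 were chosen after their values were seen.

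**Figure D4:**
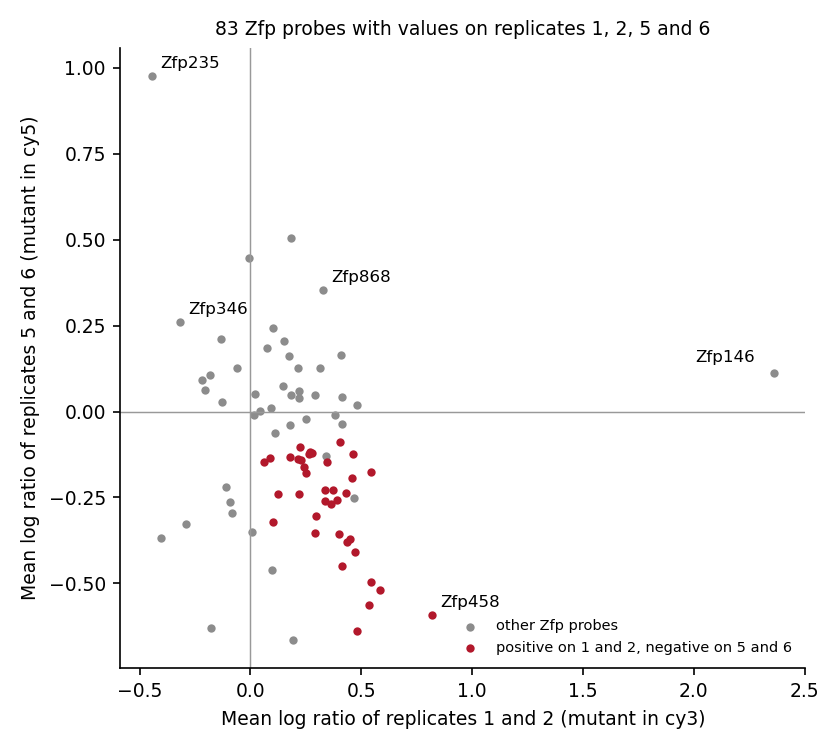
Mean log ratio of replicates 5 and 6 (vertical axis, read as log2) against that of replicates 1 and 2 (horizontal axis) for the 83 Zfp probes with values on the 4 arrays; red points are the 37 probes positive on replicates 1 and 2 and negative on 5 and 6, and grey points are the others. Zfp458 lies at the far lower right of the red points, and Zfp146 is far to the right through replicate 1.

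Without array weights, no Zfp probe passed the threshold under either reading. As deposited, limma called 0 of 89 Zfp probes and 0 of 4958 probes (0%) at an adjusted p under 0.05, and 2 of 89 Zfp probes (2.25%) had an unadjusted p under 0.05, against 88 of 4958 (1.77%). Estimates were positive for 52 and negative for 37 of the 89, with a median of 0.03, while 43.3% of all probes were positive with a median of -0.03. Centring the arrays on their medians moved this split to 57 positive and 32 negative, against 49.2% positive over all probes, and centring together with scaling to a common width moved it to 65 and 24, against 50.4%. With replicates 1 to 3 turned, 0 Zfp probes and 0 of all probes (0%) were called, 9 of 89 (10.1%) had an unadjusted p under 0.05 against 4.60% of all probes, and estimates were positive for 30 and negative for 59, with a median of -0.09 against 0.02 over all probes. Without replicates 3 and 4 and with replicates 1 and 2 turned, 38 of 83 Zfp probes (45.8%) had an unadjusted p under 0.05, 35 of them with negative estimates, against 23.4% of all 4728 probes, and 0 of them were called (0%). As deposited and without replicates 3 and 4, 10 of 83 were under an unadjusted p of 0.05, against 13.6% of all probes, and 0 of them were called, against 1 of all probes (0.0212%).

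Weighting the arrays while replicates 1 to 3 were turned, an alternative added after the data were seen, gave the only calls among Zfp probes. Of 31 probes called on the whole array (0.625% of 4958), 4 were Zfp probes, all with negative estimates. These were Zfp715 (probe 30) at -0.53 ± 0.07 (SE, n = 6; adjusted p = 0.0256), Zfp458 at -0.68 ± 0.08 (SE, n = 6; adjusted p = 0.0256), Zfp287 (probe 42) at -0.52 ± 0.07 (SE, n = 6; adjusted p = 0.0353) and Zfp61 at -0.53 ± 0.08 (SE, n = 6; adjusted p = 0.0451) in limma. Under this reading a negative estimate stands for less RNA in the mutant. Under the reading as deposited, the same estimate measures the difference between the dye orientations. Less RNA in the mutant and a dye difference cannot be told apart in these calls. The weights were 0.10 and 0.31 on replicates 3 and 4 and 1.40 to 4.01 on the others, so that these calls rest on replicates 1, 2, 5 and 6. On those arrays Xist lay at 0.61, 0.71, -3.17 and -2.58, and the meningeal and vessel medians at -0.40, -0.31, 0.35 and 0.46. Both split the arrays as the dye does and cannot be told apart from it, and their part in the calls was not tested. Of the 4 probes called, Zfp458 and Zfp287 have a value on replicate 3 of the opposite sign to replicates 1 and 2. With weights and the sign as deposited, 0 Zfp probes and 2 of all probes (0.0403%) were called.

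Among the 8 members with the smallest unadjusted p as deposited, Zfp868 came first. Zfp146, a protein made almost wholly of zinc fingers, had the largest estimate, 1.30 ± 0.53 (SE, n = 6; adjusted p = 0.921), from 4.70, 0.030 and 1.98 on replicates 1 to 3 and at 0.89, -0.26 and 0.49 on replicates 4 to 6. Replicate 1 lies far above the other arrays, and replicates 2 and 5 lie near 0 or below it. Zfp90 lay at 0.16, 0.27 and 0.80 on replicates 1 to 3 and at 0.34, 0.49 and -0.23 on replicates 4 to 6, positive on all arrays but replicate 6. Zfp472 lay at 0.0037, 0.30 and 0.88 on replicates 1 to 3 and at -0.10, 0.44 and -0.035 on replicates 4 to 6, with its highest value on replicate 3. Zfp111 had 4 values, -0.20 and 1.54 on replicates 2 and 3 and at 0.58 and 0.34 on replicates 5 and 6, and Zfp239, also known as Mok2, had 4 as well, 0.94 and 2.90 on replicates 2 and 3 and at 0.14 and -0.93 on replicates 5 and 6. Both have their extreme on replicate 3. The 2 probes of Zfp420 complete these 8. Estimates of all 8 were positive, between 0.21 and 1.30, and each had an adjusted p of 0.921.

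Zfp235 belongs to the 8 members with the smallest p once replicates 1 to 3 are turned, at -0.84 and -0.048 on replicates 1 and 2 and at 1.35 and 0.60 on replicates 5 and 6. Its cy3 values are negative and its cy5 values positive, as for Zfp346. With replicates 1 to 3 turned its estimate was 0.71 ± 0.23 (SE, n = 4). The others of these 8 are Zfp715, Zfp61, Zfp53, Zfp287, Zfp346, Zfp239 and Zfp420, and the adjusted p was 0.972 for each.

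The widest spread was found in Zfp57 and Zfp146, the latter given above. Zfp57, a KRAB zinc finger protein that keeps imprinted methylation marks in the early embryo, lay at 0.23, 0.14 and -4.24 on replicates 1 to 3 and at -0.12, 0.39 and 0.62 on replicates 4 to 6, so that its standard deviation of 1.85 comes from replicate 3. Zfp24, a factor needed for myelination, lay at 0.43, -0.040 and 1.33 on replicates 1 to 3 and at 1.12, -0.37 and -0.96 on replicates 4 to 6, with replicates 3 and 4 high and replicate 6 low. Zfp28 lay at -0.16, -0.021 and 1.42 on replicates 1 to 3 and at 1.42, -0.39 and -0.14 on replicates 4 to 6; replicates 3 and 4 are alike and all 4 other arrays are negative. Zfp748 had the reverse, at 0.47, 0.35 and -1.36 on replicates 1 to 3 and at -0.65, 0.50 and -0.17 on replicates 4 to 6, with replicates 3 and 4 lowest. Zfp458, described above, completes the 6 probes of widest spread. The smallest spreads after Zfp868 were those of Zfp92, at 0.14, 0.079 and -0.45 on replicates 1 to 3 and at 0.0089, -0.18 and 0.054 on replicates 4 to 6, Zfp46, at 0.16, 0.13 and -0.28 on replicates 1 to 3 and at -0.33, 0.13 and 0.023 on replicates 4 to 6, and Zfp263, at 0.020, -0.18 and 0.20 on replicates 1 to 3 and at 0.20, -0.31 and -0.28 on replicates 4 to 6. Each of these 3 changes sign between arrays within a narrow range.

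Members with known roles in RNA were not alike. Zfp36, or tristetraprolin, which binds AU-rich messages and speeds their decay, lay at 0.13, 0.23 and -0.33 on replicates 1 to 3 and at -0.46, 0.077 and -0.16 on replicates 4 to 6. Zfp326, a part of a complex that couples transcription and splicing, lay at -0.20, 0.29 and 1.43 on replicates 1 to 3 and at 0.58, 0.24 and -0.23 on replicates 4 to 6. Zfp207, a protein of the mitotic spindle that also acts in splicing, lay at -0.17, 0.36 and 0.70 on replicates 1 to 3 and at 0.26, -0.40 and -0.53 on replicates 4 to 6. Zfp326 and Zfp207 have their highest value on replicate 3, where Zfp36 is negative. Zfp638, which acts in RNA processing, lay at 0.32 and -0.87 on replicates 1 and 3 and at -0.39, 0.039 and -0.24 on replicates 4 to 6, lowest on replicate 3. None had 1 sign throughout. These genes, and those of the next paragraph, were named for their roles.

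Members known from neural development gave mixed values. Zfp423, a factor of cerebellar and olfactory development, lay at 0.15, 0.21 and -0.28 on replicates 1 to 3 and at -0.54, -0.044 and -0.22 on replicates 4 to 6, negative on all arrays but replicates 1 and 2. Zfp462, a chromatin regulator of neural and embryonic development, lay at 0.063, -0.43 and 0.82 on replicates 1 to 3 and at 0.61, -0.24 and 0.45 on replicates 4 to 6. The limma estimates were -0.12 ± 0.13 (SE, n = 6) for Zfp423 and 0.21 ± 0.20 (SE, n = 6) for Zfp462, each with an adjusted p of 0.921.

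Genes with more than 1 probe allow the ratios of a gene to be compared between its probes. There were 11 such genes with 24 probes, which gave 15 pairs of probes. Over 79 comparisons of a pair on an array, the signs were the same in 51 (64.6%) and opposite in 28. Of the pairs with values on all 6 arrays, the closest by largest and by median difference was that of Zfp287 probes 34 and 827, with probe 34 at 0.44, 0.42 and 0.41 on replicates 1 to 3 and at 0.51, -0.14 and -0.33 on replicates 4 to 6 and probe 827 at 0.44, 0.23 and 0.27 on replicates 1 to 3 and at 0.32, -0.35 and -0.17 on replicates 4 to 6; these 2 have the same sign on all 6 arrays. Its probe 42 lay at 0.64, 0.53 and -0.13 on replicates 1 to 3 and at -0.34, -0.62 and -0.42 on replicates 4 to 6, and differs from them on replicates 3 and 4. Zfp27 agreed in sign wherever both probes had a value, with probe 36 at 0.079 and 0.17 on replicates 1 and 2 and at 0.30, -0.23 and -0.25 on replicates 4 to 6 and probe 1316 at 0.16, 0.037 and 0.93 on replicates 1 to 3 and at 1.14, -0.30 and -0.35 on replicates 4 to 6. The 2 probes differ in size on replicate 4.

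Zfp715 shows the opposite case. Against the values of probe 30 above, its probe 41 lay at 0.084, 0.091 and -0.60 on replicates 1 to 3 and at 0.23, -0.051 and -0.22 on replicates 4 to 6, and the 2 probes differ by up to 1.08, on replicate 3. The strict dye pattern of Zfp715 is therefore that of 1 of its 2 probes. Zfp317 is similar, with its other probe, 60, at 0.28, 0.16 and -0.79 on replicates 1 to 3 and at 0.19, -0.026 and 0.11 on replicates 4 to 6, of the same sign as probe 6420 on 3 of 6 arrays. Zfp74 had probe 37 at 0.12, 0.0034 and -0.57 on replicates 1 to 3 and at 0.38, -0.13 and -0.17 on replicates 4 to 6 and probe 45 at -0.41, -0.17 and 0.79 on replicates 1 to 3 and at 0.63, -0.29 and -0.36 on replicates 4 to 6, each of the same sign as the other on 3 arrays. Probe 6419, given above, shared its sign with probe 37 on 4 arrays and with probe 45 on 3. Zfp82 had probe 26 at 0.20 and 0.16 on replicates 1 and 2 and at 0.48, 0.11 and -0.014 on replicates 4 to 6 and probe 6416 at -0.28, -0.52 and 0.47 on replicates 1 to 3 and at 1.08, -0.53 and -0.21 on replicates 4 to 6; on replicates 1 and 2 they are of opposite sign.

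Zfp420 had probe 32 at 0.65, 0.25 and 1.30 on replicates 1 to 3 and at 0.33, -0.34 and -0.40 on replicates 4 to 6 and probe 65 at 0.45, 0.38 and 0.48 on replicates 1 to 3 and at -0.12, 0.076 and 0.009 on replicates 4 to 6, both positive on every cy3 array. Zfp712 had probe 55 at 0.49, 0.28 and -0.032 on replicates 1 to 3 and at 0.41, 0.085 and -0.11 on replicates 4 to 6 and probe 72 at 0.53, 0.41 and -0.76 on replicates 1 to 3 and at -0.026, -0.34 and -0.48 on replicates 4 to 6, alike on replicates 1 and 2 and apart on replicate 3. Zfp52 had probe 35 at 0.42, 0.36 and -0.10 on replicates 1 to 3 and at 0.026, -0.31 and -0.20 on replicates 4 to 6 and probe 6426 at 0.055 and 0.52 on replicates 1 and 3 and at -0.19 and -0.31 on replicates 5 and 6. On replicates 1, 5 and 6 these 2 share their sign. Zfp51 had probe 59 at 0.37, 0.45 and -0.37 on replicates 1 to 3 and at -0.10, -0.088 and 0.013 on replicates 4 to 6 and probe 6698 at -0.13 and 0.041 on replicates 1 and 2, with 1 shared sign in 2 arrays. Zfp35 had probe 40 at 0.30, 0.33 and -0.46 on replicates 1 to 3 and at -0.16, 0.11 and 0.14 on replicates 4 to 6 and probe 4507, with 3 values, at 0.82 for replicate 3, 0.099 for replicate 5 and 0.026 for replicate 6, which differ by 1.28 on replicate 3.

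**Figure D5:**
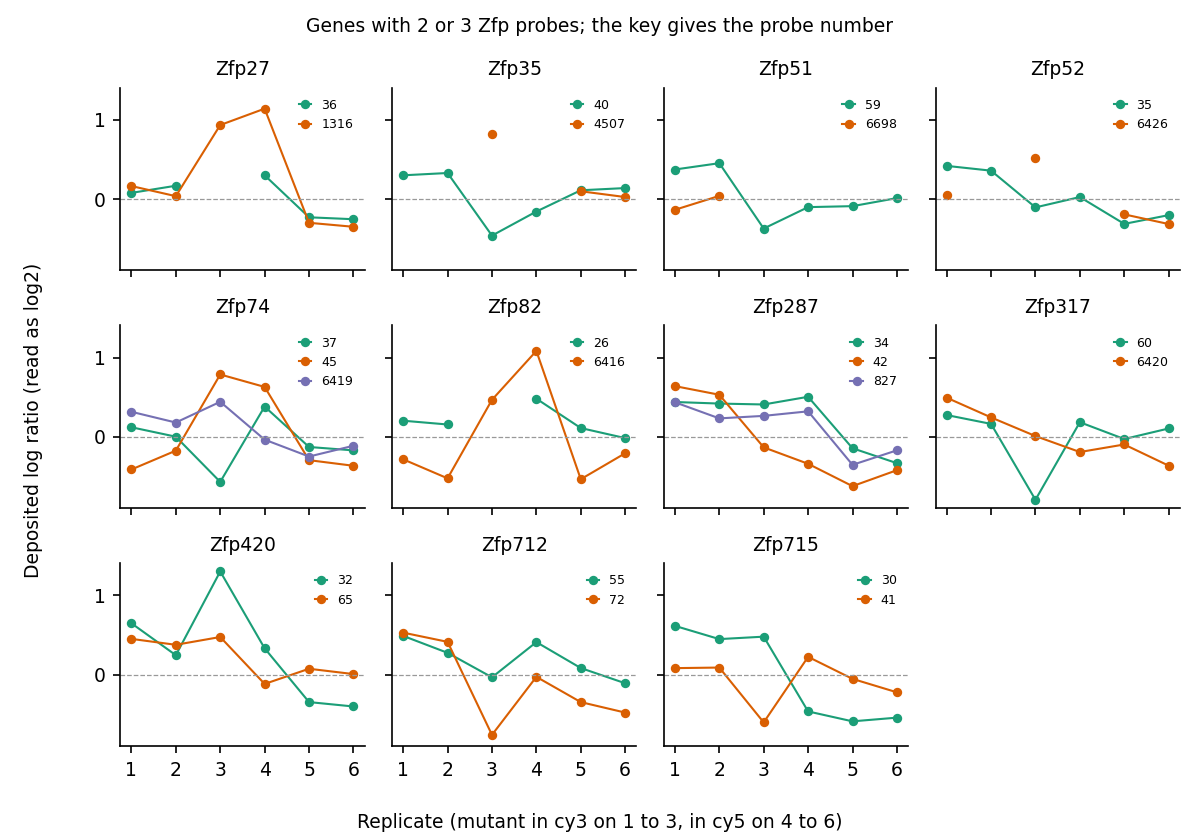
Deposited log ratio (vertical axis, read as log2) by replicate (horizontal axis) for the 11 genes with 2 or 3 Zfp probes; each line is 1 probe, named by its number in the key, and gaps are missing values. The lines of Zfp287 probes 34 and 827 run together, while those of Zfp82, Zfp715 and Zfp74 cross.

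Of the 101 probes, 32 were made on a series of consecutively numbered clone records, which supplies 35 probes of the array. Over replicates 1, 2, 5 and 6, 18 of these 32 (56.2%) were positive on replicates 1 and 2 and negative on 5 and 6, against 19 of the 51 other Zfp probes with values (37.3%). Both shares lie above the 16.9% of all probes. Zfp868 is one of these 32, and so are Zfp458, Zfp975 and at least 1 probe of each of the 11 genes with several probes. The clone series was singled out after the data were seen, and the difference between the 2 groups was not tested.

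In the genome, 87 of the 88 genes could be placed through RefSeq on GRCm38.p6, Zfp58 being the one left over. Chromosomes 7, 17 and 8 held 27, 13 and 9 of them, 49 in all. Counting members as neighbours where at most 3 other protein-coding genes lie between them, 35 genes fell into 10 runs. The run of Zfp54, Zfp51, Zfp53, Zfp52 and Zfp983 on chromosome 17 had a median ratio of 0.28 for replicate 1, 0.26 for replicate 2, -0.25 for replicate 5 and -0.26 for replicate 6, and 3 of its 4 genes with enough values had the pattern of positive and then negative values. One run of 8 on chromosome 7, with Zfp112, Zfp235, Zfp114, Zfp111, Zfp108, Zfp93, Zfp61 and Zfp94, had it in 3 of 4. Within that run Zfp235 and Zfp93 were negative on the cy3 arrays that gave a value and positive on the cy5 arrays. Zfp93 had 3 values: -1.40 for replicate 1, 1.13 for replicate 5 and 0.44 for replicate 6. The other run of 8, with Zfp84, Zfp30, Zfp420, Zfp27, Zfp74, Zfp82, Zfp566 and Zfp146, had it in 3 of 7, and its medians on replicates 3 and 4, 0.47 and 0.72, were above those of all probes. These 3 runs together had it in 9 of 15 genes and the 7 runs of 2 genes in 2 of 13, with none in 5 of the 7, where all Zfp genes had it in 32 of 73. Neighbouring genes can share sequence, so that they are not independent of each other.

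A pair of gene lists chosen with the members gives the surroundings of the set. Of 32 listed genes of KRAB corepression and heterochromatin, 23 had a probe, with 24 probes, all fitted. Estimates were positive for 9 (37.5%) and negative for 15, with a median of -0.13, against 43.3% positive and a median of -0.03 over all probes. In limma 0 were called (0% of all probes), and 0 had an unadjusted p under 0.05, against 1.77% of all probes. Trim28, the corepressor itself, stood at -0.11 ± 0.13 (SE, n = 6), the histone methyltransferase gene Setdb1 at -0.27 ± 0.25 (SE, n = 6) and the heterochromatin protein gene Cbx5 at -0.30 ± 0.23 (SE, n = 6). With replicates 1 to 3 turned 10 were positive (41.7%) and 14 negative, against 53.0% positive over all probes. Without replicates 3 and 4 the median of this list was 0.05, with 15 of 23 positive (65.2%). This is close to all probes, with a median of 0.04 and 62.6% positive. Its share of probes positive on replicates 1 and 2 and negative on 5 and 6 was 7 of 23 (30.4%), and with centred arrays 9 of 23 (39.1%), both between the share of the Zfp probes and that of all probes.

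Zinc finger factors under other names, such as the Klf, Egr, Zic and Zbtb genes, had 88 probes for 86 genes. Of 69 with the values needed, 14 (20.3%) were positive on replicates 1 and 2 and negative on 5 and 6, and with centred arrays 20 (29.0%). As deposited, the 20.3% is nearer to the 16.9% of all probes than to the 44.6% of the Zfp probes. With centred arrays the 29.0% lies between the 17.4% of all probes and the 44.6% of the Zfp probes. The difference between the lists was not tested. Among 74 fitted probes of this list 40 (54.1%) had positive estimates as deposited, against 43.3% of all probes, with a median of 0.02, and 0 were called. With replicates 1 to 3 turned 36 were positive (48.6%) and 38 negative, against 53.0% positive over all probes. Their spread over the 6 arrays, with a median of 0.38, was close to the 0.36 of the Zfp probes.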

How the data were processed

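The authors deposited 1 table of log ratios, read here as log2; the table does not state the base, so this is an assumption. Not given in the sources used here are their direction, the scanner and how background and normalization were handled. Array means lie within 0.01 of 0 and medians are 0.05, 0.04, -0.23, -0.13, 0.04 and -0.0049 on replicates 1 to 6, so the arrays appear centred on their means. No intensities were used, so dim probes could not be removed. Probes were named from the platform annotation: 6269 had 1 gene symbol, 6 several and 581 none.

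Probes measured at least 2 times per dye orientation were fitted together in R 4.3.3 (limma 3.58.1, functions lmFit and eBayes). The model held the dye orientation as a term, and the intercept was tested against 0, two-sided, with Benjamini-Hochberg adjustment over 4958 probes and a threshold of 0.05. Standard errors are moderated. The fit was first tested on simulated data. Counts, medians and promoter matches were made in Python 3.11.15 with pandas 2.3.3. Robust moderation used statmod 1.5.0.

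The members and lists were chosen with earlier results of these data known. Values on every array are given for members with 1 sign on 6 arrays under either reading, the 8 with the smallest p under each, the 6 with the largest and 4 with the smallest SD among complete probes, and genes with several probes; any others are named for their roles, their place in the genome, few values or a pattern seen in the data. Alternatives were the other reading, centring, scaling, no dye term, complete probes, array weights, robust moderation, averaging per gene, a threshold of 0.1 and leaving out arrays; the other reading combined with these was added after the data were seen. Precision is limited by how few arrays there are. The targeted gene is not reported here.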

Additional observations from a re-analysis of the deposited data

Results flagged for a closer look

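In 2 of 41 Zfp probes given by array with 4 to 6 values, 1 array lay far from the others, where chance gives about 5%. Both fell on replicate 3: Zfp57 at -4.24, with the next lowest array at -0.12, and Zfp317 probe 60 at -0.79, with the next at -0.026. In 9 of the 43 probes given by array, many of them chosen for this pattern, all values of the cy3 arrays had one sign and all values of the cy5 arrays the other. It was also found in 3 of the other Zfp probes (Zfp97, Zfp467 and Zfp563), which makes 12 of 89 (13.5%), against 342 of 4958 probes (6.90%). Zinc finger factors under other names had it in 8 of 74 (10.8%). The difference of cy3 minus cy5 arrays was 1.04 for Zfp715 probe 30, 1.17 for Zfp53, 1.00 for Zfp61, 0.54 for Zfp52 probe 6426, 0.47 for Zfp317 probe 6420, 0.44 for Zfp74 probe 6419 and 0.43 for Zfp42, and -0.74 for Zfp346 and -1.42 for Zfp235. The dye term of limma tested this difference and gave an adjusted p of 0.972 for each of the 9. It is the same test as that of the estimates with replicates 1 to 3 turned, and adds no separate result.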

How the results depend on the processing

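No Zfp probe passed under any alternative but one: with array weights and replicates 1 to 3 turned 4 passed, of 31 on the whole array, with Zfp61 at -0.53 against 0.04 as deposited, and Zfp715, Zfp458 and Zfp287 probe 42 at -0.53, -0.68 and -0.52. Over all probes, 2 passed with array weights and 1 without replicates 3 and 4. Leaving out each replicate in turn gave 0 passing probes, under both readings. The count of Zfp probes with 1 sign on all arrays used was 1 as deposited, 6 with replicates 1 to 3 turned, 2 with centred and 2 with centred and scaled arrays, 11 of 83 without replicates 3 and 4, and 1 to 3 when each replicate was left out. Of all complete probes, 1.44% had 1 sign as deposited, 3.91% with replicates 1 to 3 turned and 1.54% under either centring. Averaged per gene, 1 of 61 Zfp genes had 1 sign as deposited and 3 of 61 (4.92%) with replicates 1 to 3 turned. Without replicates 3 and 4, 11.7% of all probes were positive throughout and 5.46% negative throughout. With single replicates left out, the share over all probes was not counted. The median SD of 0.36 ran from 0.27 without replicates 3 and 4 to 0.40 without replicate 2, and 44.6% of probes with the pattern over replicates 1, 2, 5 and 6 became 43.8% per gene and 37.3% without the clone series. Any symbol that begins with Zfp gave 72 complete probes in place of 69. Of 41 named estimates, 30 changed sign with replicates 1 to 3 turned, 16 with array weights, 3 with centring and 1 without a dye term, and 14 of 38 did without replicates 3 and 4; none of these passed under those 5 settings. No paired analysis was possible because the mutants form 1 group against 1 pool. Removal of dim probes was not run, for want of intensities.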
